A study of Mus musculus with 20 samples.

Results

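Expression of 10 genes of glutathione-dependent detoxification and the NRF2 response was followed in mouse liver on an alcohol diet and in a macrophage-like cell line. The genes were taken as a list of symbols, out of 24972 symbols in each table: the mu class glutathione transferases Gstm1, Gstm2 and Gstm3, the alpha class Gsta2, Gsta3 and Gsta4, the pi class Gstp1, the theta class Gstt1, and the NRF2 targets Gclc and Nqo1. All 10 symbols were found. RNA was sequenced from total liver of WT mice on alcohol diet (n = 4) and WT mice on control diet (n = 4), and of mice labelled RageΔMye on alcohol diet (n = 3) and on control diet (n = 3), all labelled male and fed for 6 weeks. RAW264.7, a macrophage-like line labelled WT, was exposed for 6 hours to the complex, [O] HMGB1 together with IL1β (n = 3), or to BSA (n = 3). The labels name the second genotype only as RageΔMye, with neither the promoter of a Cre line nor the age of the animals. They do not say whether replicates are separate animals or cultures, so the p-values measure the spread between these libraries, which may be technical.

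Glutathione transferases join glutathione to reactive electrophiles, among them lipid aldehydes and drug metabolites, and are among the most abundant enzymes of the hepatocyte. NRF2, encoded by Nfe2l2, is held and marked for degradation by KEAP1. When electrophiles modify KEAP1, NRF2 accumulates, pairs with a small MAF protein and binds antioxidant response elements beside its targets. These include Gclc, the catalytic subunit of the enzyme that limits glutathione synthesis, Nqo1, a quinone reductase, and several glutathione transferases. Ethanol metabolism yields acetaldehyde and oxidants and lowers hepatic glutathione.

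The mu genes resemble one another closely, and Gstp1 is a near copy of Gstp2, which bears on how reads are divided within each class. Gstm1, Gstm2 and Gstm3 lie side by side on the minus strand of chromosome 3 (GRCm38, GENCODE vM21), at 108012255 to 108017973, 107981702 to 107986453 and 107963696 to 107969283. Their coding sequences were 86.0% (Gstm1 and Gstm2), 89.5% (Gstm1 and Gstm3) and 85.1% (Gstm2 and Gstm3) identical. Of the 50-base words of each coding sequence, 46.5% for Gstm1, 15.6% for Gstm2 and 59.0% for Gstm3 also occurred in transcripts of another gene. Gstp1, on chromosome 19 at 4035407 to 4037985 on the minus strand, was 98.1% identical to its neighbour Gstp2 and shared 71.1% of its words with other genes. Gsta2 shared 75.3%, with Gsta1 (97.5% identical), Gm10639 and Gm3776. Gsta3, Gsta4, Gstt1, Gclc and Nqo1 shared none. Chromosome 9 carries Gclc at 77754535 to 77794485, Gsta4 at 78182774 to 78209349 (both plus strand) and Gsta2 at 78331018 to 78355788 (minus strand). Gsta3 lies on chromosome 1 at 21240589 to 21265661 (plus strand), Gstt1 on chromosome 10 at 75783813 to 75798584 and Nqo1 on chromosome 8 at 107388225 to 107403206 (both minus strand). No exon of the 10 genes shares bases with an annotated exon of the other strand. The first 90 coding bases, from GENCODE vM21 transcripts, show how closely the mu copies and the pi copies match, with capitals where a copy differs from Gstm1 or from Gstp1. Gstm2 differed from Gstm1 at 15 bases, Gstm3 from Gstm1 at 11 and Gstp2 from Gstp1 at 6.
Gstm1: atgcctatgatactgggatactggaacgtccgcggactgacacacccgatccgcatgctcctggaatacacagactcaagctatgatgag
Gstm2: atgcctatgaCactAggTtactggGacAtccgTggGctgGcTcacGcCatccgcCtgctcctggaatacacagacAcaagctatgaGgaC
Gstm3: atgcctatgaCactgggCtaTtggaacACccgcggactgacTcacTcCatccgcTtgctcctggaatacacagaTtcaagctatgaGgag
Gstp1: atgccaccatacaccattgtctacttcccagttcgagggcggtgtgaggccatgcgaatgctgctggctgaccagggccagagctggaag
Gstp2: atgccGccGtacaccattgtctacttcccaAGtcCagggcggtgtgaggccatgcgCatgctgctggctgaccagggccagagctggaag

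The promoters of the members were searched for letters of the NRF2 element and of the related AP-1 element, on both strands. RefSeq windows on GRCm38.p6, with 250 bases before and 50 after each start site, held 9 promoters of 8 members, all but Gsta4 and Gclc. The core of the antioxidant response element, TGACNNNGC, stood in 1 of the 9, that of Gsta3, beginning 121 bases before the start site, and in 12.4% of all 32851 promoters. The AP-1 letters TGANTCA, which read the same on both strands, stood in 1 of the 9, that of Gstp1, 74 bases before the start site, and in 7.81% of all promoters. A match is a description of letters, not of binding. Both windows are shown with the match in capitals, because Gsta3 and Gstp1 are among the most abundant of the 10 genes.
Gsta3, chr1:21240335-21240634, plus strand: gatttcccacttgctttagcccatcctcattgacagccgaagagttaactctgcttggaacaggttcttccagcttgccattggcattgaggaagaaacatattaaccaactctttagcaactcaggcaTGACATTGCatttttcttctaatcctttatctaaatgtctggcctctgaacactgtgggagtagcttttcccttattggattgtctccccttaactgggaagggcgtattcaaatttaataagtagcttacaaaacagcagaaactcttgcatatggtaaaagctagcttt
Gstp1, chr19:4037863-4038162, minus strand: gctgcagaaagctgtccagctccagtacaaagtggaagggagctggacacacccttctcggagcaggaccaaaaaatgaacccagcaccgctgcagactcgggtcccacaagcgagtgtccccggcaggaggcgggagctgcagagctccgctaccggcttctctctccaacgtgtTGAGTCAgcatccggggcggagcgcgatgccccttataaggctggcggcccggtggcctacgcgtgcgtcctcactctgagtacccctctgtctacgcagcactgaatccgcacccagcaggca

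The libraries differed in kind before any gene was compared. Between 15113 and 15599 genes were above 0 in a WT library, between 7596 and 8502 in one labelled RageΔMye and between 8630 and 9231 in RAW264.7 cells. The commonest value above 0 in a library, called its step, was 0.0576 to 0.0835 TPM in WT, 14.4 to 20.5 TPM in RageΔMye and 9.85 to 13.4 TPM in RAW264.7. A gene listed at 0 in the last 2 kinds is reported only as listed at 0, because 1 to 2 of 14 housekeeping genes were also at 0 in each RageΔMye library and 0 to 2 in each RAW264.7 library. Genes with exons that share bases with exons of the other strand held 15.4% to 18.3% of TPM in WT libraries. They held 55.8% to 61.7% in RageΔMye and 56.0% to 58.9% in RAW264.7 libraries, and what sets this share was not tested. Ager, the gene of RAGE, went against the genotype label, with 93.1 to 166 TPM in RageΔMye alcohol libraries and 101 to 128 TPM in RageΔMye control libraries, against 0.0378 to 0.478 and 0.0194 to 0.199 TPM in WT libraries on the same diets. Sex-linked transcripts divided the WT libraries by diet, although all are labelled male. Xist stood at 17.8 to 27.3 TPM in WT alcohol libraries and 0.00165 to 0.135 TPM in WT control libraries, and the sum of 4 Y-linked genes at 0 to 0.0161 against 11.3 to 16.6 TPM. In RageΔMye libraries the Y-linked sum was 0.276 to 1.74 TPM on alcohol and 3.16 to 4.502 TPM on control diet. Xist overlapped there, at 0.322 to 0.990 TPM on alcohol and 0 to 3.10 TPM on control diet, so it did not divide these libraries by diet. All WT libraries follow this division, so no WT diet value without it can be given, and diet and sex-linked transcripts cannot be told apart in any WT result below. Hepatocyte markers stood at sums of 137798 to 157785 TPM in WT alcohol and 122941 to 148777 TPM in WT control libraries, and 41795 to 53882 and 45949 to 61669 TPM in RageΔMye alcohol and control libraries. All 7 measured were at 0 in RAW264.7 cells, where 8 macrophage markers summed to 916 to 1438 TPM, with Fcgr1 at 0.

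Alcohol diet was first compared with control diet in WT liver. Gstp1 fell by 90.6%, Gstm2, Gsta4 and Nqo1 rose by 1.46-fold to 1.88-fold, and Gstm1, Gstm3, Gsta2, Gsta3, Gstt1 and Gclc did not pass the test. Thus 3 of 10 rose and 1 fell, where 31.2% of all 9747 genes tested passed, 13.3% upward and 17.9% downward. The median log2 fold change of the 10 was 0.06, beside -0.05 over all genes. Only Gstm2 and Gstp1 among the 10 had groups that did not overlap, against 30.8% of all genes tested.

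**Figure D1:**
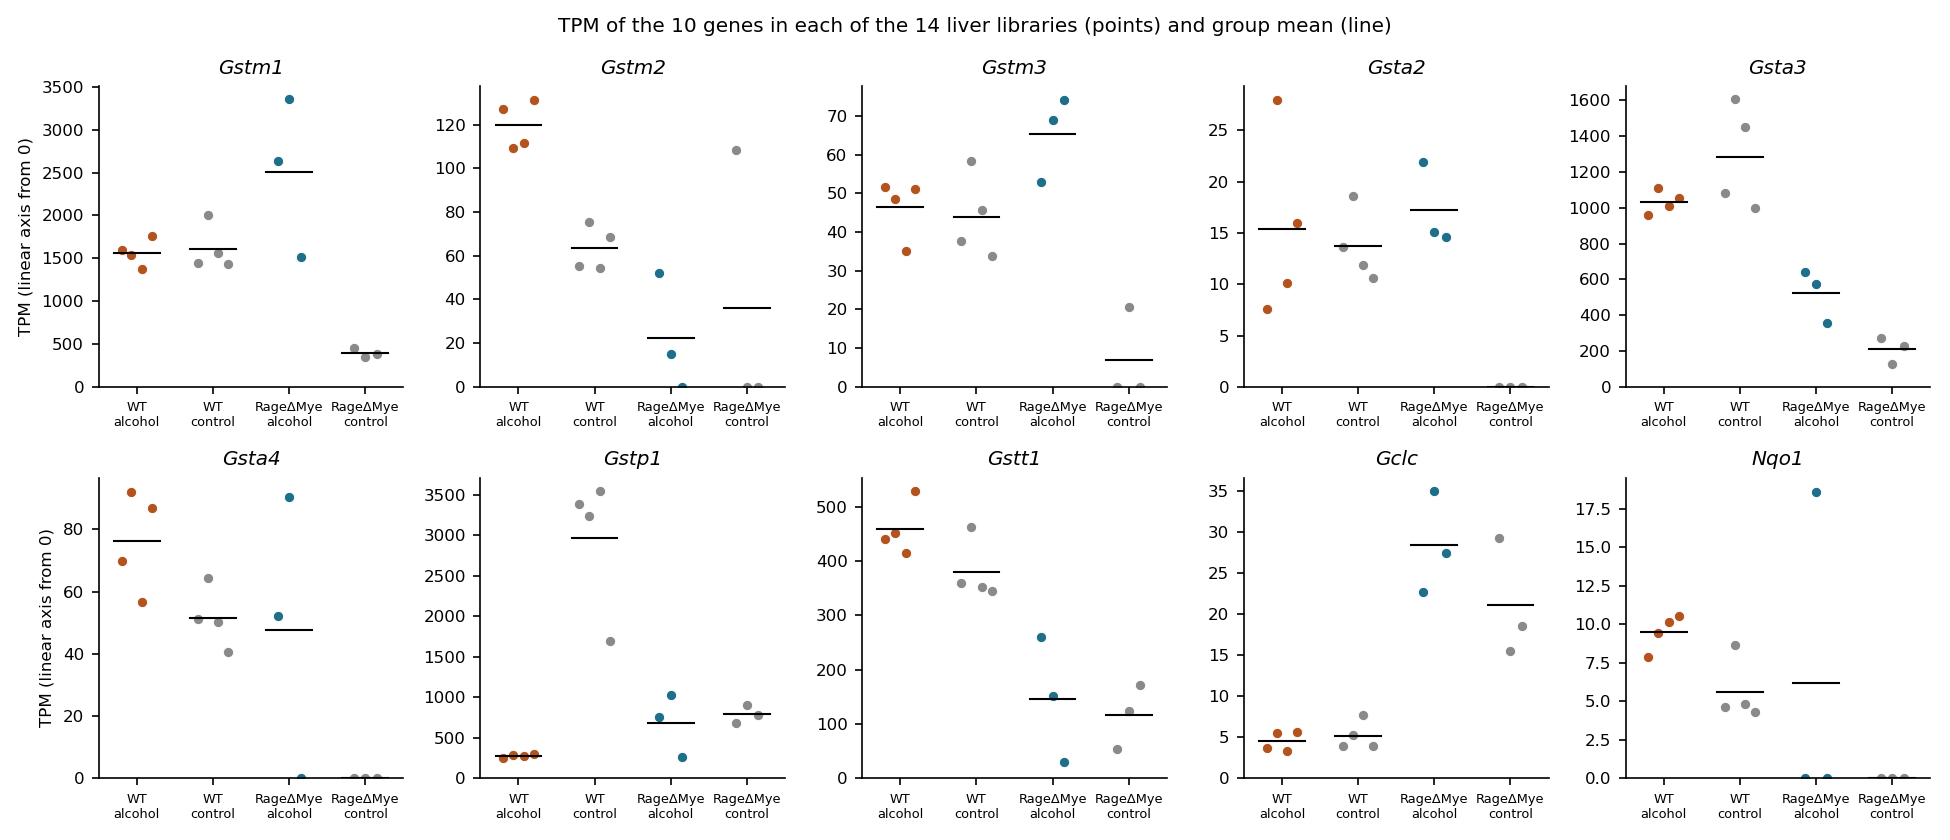
TPM (y axis, linear, from 0) of each of the 10 genes in the 14 liver libraries, with points for libraries, lines for group means, and alcohol left of control within WT and within RageΔMye. Gstp1 stood at 255 to 302 TPM in all 4 WT alcohol libraries and at 1702 to 3550 TPM in WT control libraries, while Gstm1 separated the diets only in RageΔMye libraries.

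Of the 3 neighbouring mu genes, Gstm2 rose in WT liver and Gstm1 and Gstm3 did not pass. Gstm2 had 127, 109, 112 and 131 TPM in WT alcohol libraries and 55.3, 75.4, 54.5 and 68.7 TPM in WT control libraries. Every alcohol library stood above every control library, and Gstm2 rose by a log2 fold change of 0.91 (SE 0.134, adjusted p = 9.5e-04). It passed in 17 of 18 alternatives, all but the fit that gives both genotypes 1 shared spread (adjusted p = 1), in which 2.79% of 12069 genes passed in WT. Gstm1, the most abundant mu gene, had 1595, 1538, 1371 and 1760 TPM in WT alcohol and 1441, 2008, 1561 and 1429 TPM in WT control libraries. The groups overlapped, and the difference of -0.03 (SE 0.136, adjusted p = 0.881) was smaller than its error. Gstm3 averaged 46.6 ± 7.77 TPM on alcohol and 43.8 ± 10.8 TPM on control diet (SD, n = 4 each), and its difference of 0.10 did not pass (adjusted p = 0.707). Because Gstm1 and Gstm3 share many words with other genes, the split of reads between them is uncertain.

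Of the alpha class, only Gsta4, which conjugates the lipid peroxidation product 4-hydroxynonenal, passed in WT liver. Gsta4 had 69.7, 92.0, 56.5 and 86.8 TPM in WT alcohol libraries and 51.3, 64.2, 50.2 and 40.7 TPM in WT control libraries. In 3 of 4 alcohol libraries it stood above every control library, and it rose by 0.55 on the log2 scale (SE 0.180, adjusted p = 0.0408). This call was weak: it was kept in 2 of 8 fits with a library left out (those without alcohol replicate 3 or control replicate 2), and the other 6 gave adjusted p-values of up to 0.106. Gsta3, known in the mouse for conjugating the aflatoxin epoxide, was the most abundant alpha gene, with 1033 ± 64.5 TPM on alcohol and 1284 ± 292 TPM on control diet (SD, n = 4 each). Its difference of -0.29 (SE 0.157, adjusted p = 0.188) did not pass. Gsta2 had 7.56 to 27.9 TPM on alcohol and 10.6 to 18.6 TPM on control diet, with overlapping groups (0.03, SE 0.330, adjusted p = 0.954).

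Gstp1 had by far the largest diet difference of the 10 in WT liver. Its values were 255, 283, 271 and 302 TPM in WT alcohol libraries and 3390, 3236, 3550 and 1702 TPM in WT control libraries. No alcohol library came near any control library, and the ratio of the means was 0.0936. The log2 fold change was -3.36 (SE 0.212, adjusted p = 2.6e-06), and it passed in 18 of 18 alternatives, between -3.61 and -3.25. Gstp1 is known to be more abundant in male than in female mouse liver. Of 10 other male-biased liver genes, none of which is among the 10 studied, 10 fell in the same comparison, with summed levels of 106 to 116 TPM on alcohol and 13819 to 29455 TPM on control diet. Of 10 female-biased genes 10 rose, to sums of 5481 to 7660 TPM on alcohol, against 1.95 to 53.1 TPM on control diet. The part of sex-biased expression in the fall of Gstp1 cannot be told apart from diet. The near copy Gstp2 fell with it, at 2.41 ± 1.43 TPM on alcohol and 15.4 ± 5.94 TPM on control diet (log2 fold change -2.27, SE 0.359, adjusted p = 0.00146). Gstp3, which is 72.7% identical to Gstp1 in coding sequence, went the other way. It rose to 54.5 ± 10.3 TPM on alcohol, against 19.9 ± 6.82 TPM on control diet (SD, n = 4 each; 1.45, SE 0.216, adjusted p = 0.00105).

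Gstt1, the theta enzyme that acts on small halogenated compounds, had 440, 451, 416 and 529 TPM in WT alcohol libraries and 360, 463, 352 and 345 TPM in WT control libraries. Control replicate 2 alone overlapped the alcohol libraries. The difference of 0.28 (SE 0.128) did not pass (adjusted p = 0.125), and it was 0.37 and passed without that replicate (adjusted p = 0.0323). Gstt2, its neighbour in class, rose to 103 to 152 TPM on alcohol, against 63.6 to 73.3 TPM on control diet (0.86, SE 0.128, adjusted p = 0.00106).

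Of the classical NRF2 targets, Nqo1 rose in WT liver and Gclc did not pass. Nqo1 had 7.88, 9.44, 10.2 and 10.5 TPM in WT alcohol libraries and 4.61, 8.66, 4.84 and 4.28 TPM in WT control libraries. In 3 of 4 alcohol libraries it stood above every control library, and it rose by 0.71 on the log2 scale (SE 0.191, adjusted p = 0.0189). The adjusted p was 0.0517 without control replicate 1 and 0.0524 without control replicate 3. Gclc had 3.69, 5.49, 3.34 and 5.59 TPM on alcohol and 4.00, 5.24, 7.72 and 3.88 TPM on control diet, and its difference of -0.15 (SE 0.213, adjusted p = 0.617) was within the spread. In whole-liver RNA fewer cells of a type and less RNA per cell cannot be told apart. Of the markers of other cells, only the stellate sum separated the diets in WT liver. Sums over 6 stellate markers were 67.2 to 122 TPM on alcohol and 37.5 to 56.3 TPM on control diet. Sums overlapped for 6 cholangiocyte markers (42.4 to 142 and 22.3 to 74.5 TPM) and 5 endothelial markers (66.2 to 149 and 43.5 to 109 TPM). They also overlapped for 6 Kupffer cell markers (127 to 289 and 171 to 187 TPM) and 8 macrophage markers (71.7 to 147 and 80.3 to 88.2 TPM). All of these markers were above 0 in some library of both groups, and their part in the rises of Nqo1, Gsta4 and Gstm2 was not tested.

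Genes of the wider pathway moved in both directions in WT liver, as did genes at large: 13.3% of all 9747 genes tested rose and 17.9% fell. Of 18 other glutathione transferases, 14 were tested, 4 rose and 3 fell. Beside those named above, microsomal Mgst3 rose (1.37, adjusted p = 0.00240), and Mgst1, at 1811 ± 98.1 TPM on alcohol and 2755 ± 174 TPM on control diet, fell (-0.60, adjusted p = 0.00190). Of 25 other NRF2 targets 22 were tested, 4 rose and 4 fell, and their median log2 fold change was -0.17, beside -0.05 over all genes. The risers included Hmox1, which degrades haem, at 88.7 ± 11.4 TPM on alcohol and 31.5 ± 8.19 TPM on control diet (1.49, SE 0.184, adjusted p = 3.6e-04), the efflux pump Abcc4 (1.201, adjusted p = 2.1e-04) and G6pdx, which makes NADPH (0.60, adjusted p = 0.0126). The fallers included the aldehyde oxidase Aox1 (-1.12, adjusted p = 0.00120) and the aldehyde reductase Akr7a5 (-0.76, adjusted p = 0.00565).

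Of 10 regulators of NRF2, 9 were tested, 3 rose and 1 fell, beside 13.3% and 17.9% of all genes tested. Nfe2l2 itself was at 13.9 to 16.8 TPM in WT alcohol and 15.6 to 24.1 TPM in WT control libraries, and Keap1 at 5.001 to 6.31 and 5.33 to 6.71 TPM, and neither passed. The small MAF genes Maff (1.67, adjusted p = 8.5e-04) and Mafk (0.92, adjusted p = 0.00360) rose, Mafg fell (-0.60, adjusted p = 0.0181), and Bach1, a repressor that competes for the same elements, rose (1.13, adjusted p = 0.0147). Of 20 genes of glutathione synthesis and turnover 18 were tested, 1 rose and 3 fell, beside the same shares over all genes. Chac1, which breaks glutathione down, rose to 18.7 ± 2.81 TPM on alcohol, against 5.62 ± 2.37 TPM on control diet (1.63, SE 0.220, adjusted p = 5.9e-04). Its paralogue Chac2 (-0.91), catalase (Cat, -0.74) and the glyoxalase Glo1 (-0.44) fell, with adjusted p-values of 0.00206, 0.00180 and 0.00707. Exons of Mafk, G6pdx and Glo1 share bases with opposite-strand genes, whose reads cannot be told apart from theirs unless strand was used.

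**Figure D2:**
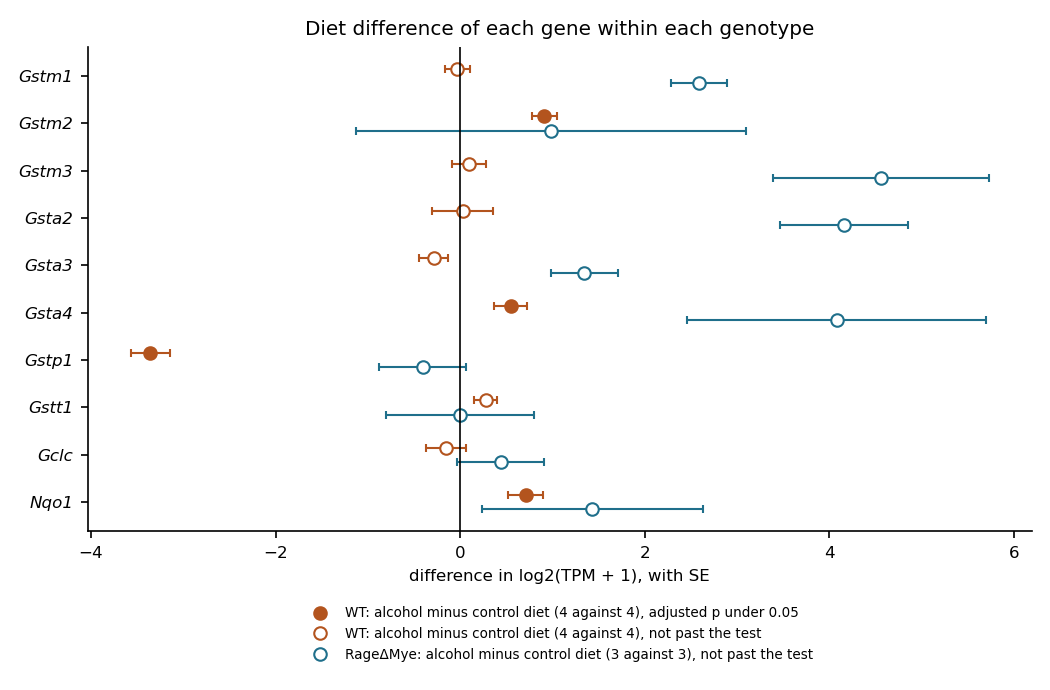
Difference in log2(TPM + 1) between alcohol and control diet (x axis) with its SE, for each of the 10 genes (y axis) in WT and in RageΔMye libraries. Gstp1 stood at -3.36 in WT and -0.41 in RageΔMye libraries, and Gstm1 at -0.03 in WT and 2.59 in RageΔMye libraries, with wider errors in RageΔMye.

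In the libraries labelled RageΔMye no member passed the test, where 0.0374% of 10689 genes did (4 genes). At an unadjusted p under 0.05 there were 5 of the 10 members and 747 of all genes. The median log2 fold change of the 10 was 1.39, beside 0.01 over all genes. This median is no measure of size, since Gsta2, Gsta4 and Nqo1 were listed at 0 in all 3 control libraries. Against 0, a value of 1 step gives a large log2 difference. Gstm1, Gstm3, Gsta2 and Gsta3 had alcohol libraries that all stood above all control libraries, where 5.83% of all genes tested had such an upward separation. The fit with 1 spread shared by both genotypes called these 4 genes, and 5.44% of 12069 genes.

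Gstm1 was the member with the smallest p in RageΔMye libraries. It had 2635, 3361 and 1514 TPM in RageΔMye alcohol libraries and 453, 349 and 388 TPM in RageΔMye control libraries. All 3 alcohol libraries stood far above all 3 control libraries. The log2 fold change of 2.59 (SE 0.303, adjusted p = 0.0573) missed the threshold, and the adjusted p was under 0.05 in 6 of 17 alternatives, among them that without alcohol replicate 3 (0.0356), and ranged over all 17 between 2.9e-05 and 0.532. In steps of the library, Gstm1 stood at 152, 223 and 104 on alcohol and 25, 17 and 27 on control diet. Sums over 5 endothelial markers were 0 to 3.78 TPM on alcohol and 5.15 to 54.4 TPM on control diet in these libraries, with Lyve1 listed at 0 in both groups. The Kupffer cell marker Clec4f stood at 8.32 to 41.1 TPM on alcohol and 47.6 to 124 TPM on control diet, without overlap. The sum over 6 Kupffer cell markers overlapped, at 28.5 to 219 TPM on alcohol and 206 to 289 TPM on control diet, with Timd4 listed at 0 in both groups. The Y-linked sums given above did not overlap either, while the Xist values did. The part of these markers and of the Y-linked genes in the Gstm1 values was not tested.

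The other members that separated the diets in RageΔMye libraries did so at low levels or with a wide spread. Gsta3 had 641, 573 and 359 TPM in RageΔMye alcohol and 272, 128 and 228 TPM in RageΔMye control libraries, a log2 fold change of 1.35 (SE 0.362, adjusted p = 0.377). Gstm3 had 52.9, 69.0 and 74.1 TPM on alcohol and 0, 20.5 and 0 TPM in the control libraries (4.56, SE 1.17, adjusted p = 0.324). Gsta2 had 21.9, 15.1 and 14.6 TPM on alcohol and was listed at 0 in all 3 control libraries. The Gsta2 values lie near 1 step, and the fitted 4.16 (SE 0.696, adjusted p = 0.112) is no measure of size, since it ran between 0.89 and 7.41 over the alternatives, as that of Gstm3 ran between 1.74 and 6.78. Gsta4 had 52.0, 90.5 and 0 TPM on alcohol and was listed at 0 in all control libraries (adjusted p = 0.672).

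Gstp1, which fell in WT liver, overlapped between the diets in RageΔMye libraries. It had 763, 1034 and 262 TPM in RageΔMye alcohol libraries and 688, 904 and 777 TPM in RageΔMye control libraries. Alcohol replicate 3 was the lowest and replicate 2 the highest of all 6, and the difference was -0.41 (SE 0.471, adjusted p = 0.763), or 0.18 without alcohol replicate 3. That replicate was the lowest of its group for 8 of the 10 members. The male-biased genes summed to 330 to 1182 TPM on alcohol and 3192 to 4020 TPM on control diet in these libraries, and the female-biased genes to 178 to 773 TPM against 0. Of these lists, 1 of 10 male-biased genes passed, Mup20 (-4.29, SE 0.389, adjusted p = 0.0177), which alone held 1067 to 2442 TPM on control diet, and 0 of the 4 female-biased genes tested passed. At an unadjusted p under 0.05 there were 5 and 2 of them. Their part in the Gstp1 values was not tested.

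The remaining members gave no separation in RageΔMye libraries. Gstt1 had 260, 151 and 29.1 TPM on alcohol and 54.3, 123 and 173 TPM on control diet, a difference of 0.00 with an SE of 0.804. Gclc had 22.6, 35.1 and 27.5 TPM on alcohol and 29.3, 15.5 and 18.6 TPM on control diet (0.44, SE 0.467, adjusted p = 0.752). These Gclc values lay at only 0.754 to 2.33 steps. Nqo1 was listed at 18.6 TPM in alcohol replicate 2 and at 0 in the other 5 libraries. Gstm2 had 52.0, 15.1 and 0 TPM on alcohol and 109, 0 and 0 TPM on control diet, so that its mean was lower on alcohol while its log2 difference was 0.99 (SE 2.12, adjusted p = 0.905).

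**Figure D3:**
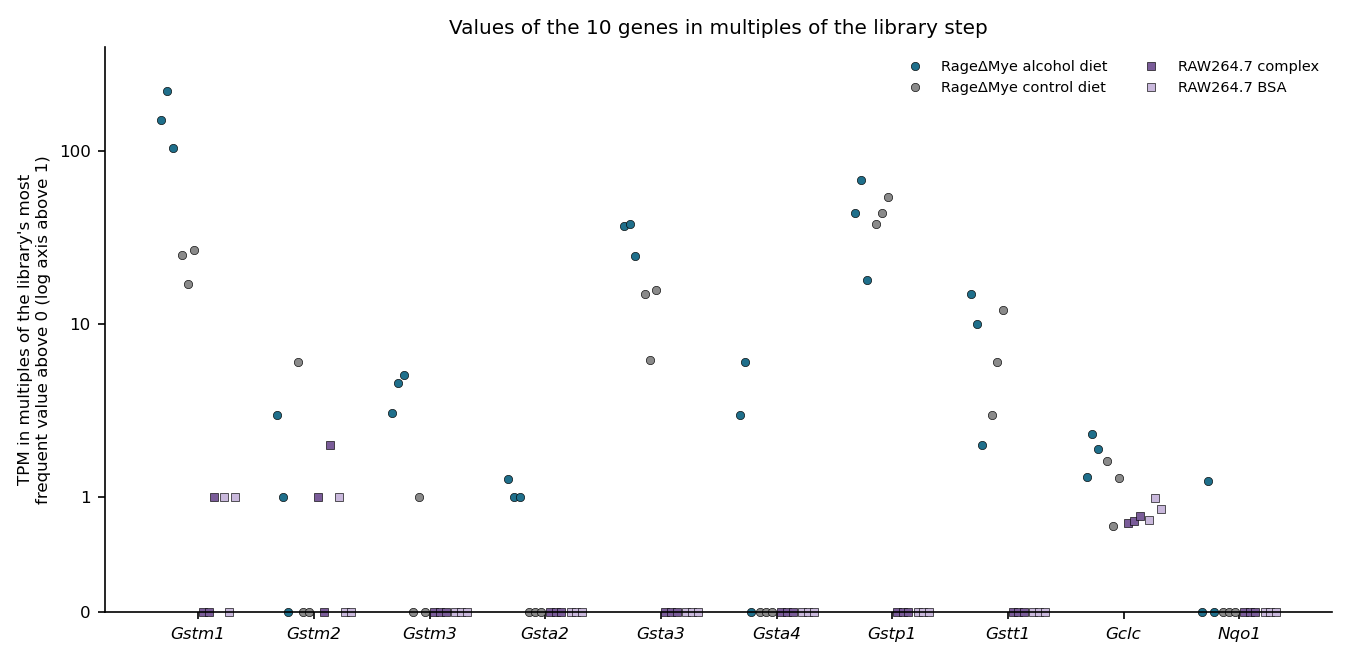
Values of the 10 genes in the 6 RageΔMye libraries (circles) and the 6 RAW264.7 libraries (squares). The y axis, logarithmic above 1, gives multiples of the step of the library, its commonest value above 0. Gstm1 stood at 104 to 223 steps on alcohol and 17 to 27 on control diet, while Gsta2 stood at 1 to 1.27 steps or at 0.

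The coarse values of the RageΔMye libraries show in members that stood at few steps. Of 43 member values above 0, 25 were whole multiples of the library step to within 0.02, or 58.1%, beside 10.2% over all genes. That share does not itself mark coarse values. In all 8 WT libraries Gstm2 and Gsta4 were also whole multiples, at 663 to 2210 and 610 to 1446 steps. Gstt1 stood at 15, 10 and 2 steps on alcohol and 3, 6 and 12 on control diet, and Gstm2 at 3, 1 and 0 against 6, 0 and 0. The median SD of a gene within a group was 0.182 on the log2 scale in WT and 0.890 in RageΔMye libraries.

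The wider pathway in RageΔMye libraries held no gene that passed. None of 15 other glutathione transferases, 23 other NRF2 targets, 8 regulators and 17 genes of glutathione synthesis and turnover tested did so. At an unadjusted p under 0.05 in limma there were 4, 8, 0 and 3 of them, beside 747 of all 10689 genes tested. Of the NRF2 targets, 21 of 23 had a positive log2 difference, with a median of 0.68, and of the other glutathione transferases 11 of 15, with a median of 1.15. The median over all genes was 0.01, and these signs were not tested. The list medians are no measure of size either, since some of these genes were listed at 0 in control libraries, Gstp2 in all 3. The smallest p-values belonged to the ferritin heavy chain Fth1, at 1639 ± 382 TPM on alcohol and 604 ± 92.0 TPM on control diet (SD, n = 3 each; 1.42, SE 0.238, adjusted p = 0.112), and to the efflux pump Abcc3, at 32.6 to 93.5 TPM and 3.19 to 11.9 TPM (3.01, SE 0.646, adjusted p = 0.207). Gstt2, at 72.4 to 90.5 TPM on alcohol and 0 to 19.7 TPM on control diet, had an adjusted p of 0.534. Gstz1 had a difference of 1.15 and an adjusted p of 0.612, Maff 1.83 and 0.672, Rbx1 1.15 and 0.751, Gpx3 -2.91 and 0.652, and Glo1 1.19 and 0.672. Exons of Gstz1 and Glo1 share bases with opposite-strand genes.

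The test of the difference between the diet effects, RageΔMye minus WT, asked whether the genotypes as labelled differed. No member passed, where 0.505% of 12069 genes did (61 genes), and at an unadjusted p under 0.05 there were 5 members and 1026 genes. Gstm1 had a difference of 2.62 (SE 0.707, adjusted p = 0.215), Gstm3 of 4.46 (SE 1.30, adjusted p = 0.279) and Gsta3 of 1.64 (SE 0.849, adjusted p = 0.682). Gstp1 had a difference of 2.95 (SE 1.203, adjusted p = 0.478), and one of 3.20 that passed (adjusted p = 0.0197) without WT control replicate 4, its low control library. Of the male-biased liver genes, 2 of 10 passed in this test, Cyp2d9 (6.37, SE 0.784, adjusted p = 0.00162) and Cyp4a12b (5.24, SE 0.769, adjusted p = 0.00799). All 10 had a positive difference, with a median of 3.42, against 0.05 over all genes tested. None of the 10 female-biased genes passed, with 8 at an unadjusted p under 0.05, and all 10 had a negative difference with a median of -6.22. The part of sex-biased expression in the Gstp1 difference was not tested. None of the companion genes of the 4 lists given above passed, and 3, 3, 0 and 5 of the 15, 24, 9 and 18 tested in them had an unadjusted p under 0.05. The smallest p-values in their lists were those of Gstm7 (-3.04, adjusted p = 0.294) and Gstt2 (2.68, 0.432), Cbr1 (4.19, 0.364) and Blvrb (2.77, 0.394), Rbx1 (1.199, 0.744) and Mafg (1.03, 0.790), and Glo1 (1.63, 0.355) and Glrx (2.65, 0.478). Because the libraries of the genotypes differ in kind and in Ager, genotype and library cannot be told apart in these values.

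The make-up of the glutathione transferase pool differed between the diets in both genotypes, described here without a test and over all 26 genes of the family measured. The pi class held 4.45% to 4.79% of glutathione transferase TPM in WT alcohol and 19.1% to 32.3% in WT control libraries, and 8.86% to 15.9% in RageΔMye alcohol and 29.3% to 41.4% in RageΔMye control libraries. The mu class held 26.1% to 29.5% in WT alcohol and 16.6% to 19.98% in WT control libraries, and 48.4% to 52.8% against 18.8% to 29.1% in RageΔMye libraries. Neither share overlapped between the diets in either genotype. The level of the mu class did overlap in WT liver, at 1754 to 2232 TPM on alcohol and 1776 to 2437 TPM on control diet, and did not in RageΔMye libraries, at 1664 to 3543 TPM on alcohol and 411 to 703 TPM on control diet. The ratio of Gstp1 to Gstm1, chosen after their values were seen, was 0.160 to 0.198 in WT alcohol and 1.19 to 2.35 in WT control libraries, and 0.173 to 0.308 in RageΔMye alcohol and 1.52 to 2.59 in RageΔMye control libraries. In WT liver the ratio was low on alcohol with Gstp1 low and Gstm1 overlapping between diets, and in RageΔMye libraries with Gstm1 high and Gstp1 overlapping. The sum of all glutathione transferases was 6714 to 7666 TPM in WT alcohol and 9052 to 12390 TPM in WT control libraries, and 3289 to 6712 TPM in RageΔMye alcohol and 2185 to 2412 TPM in RageΔMye control libraries.

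**Figure D4:**
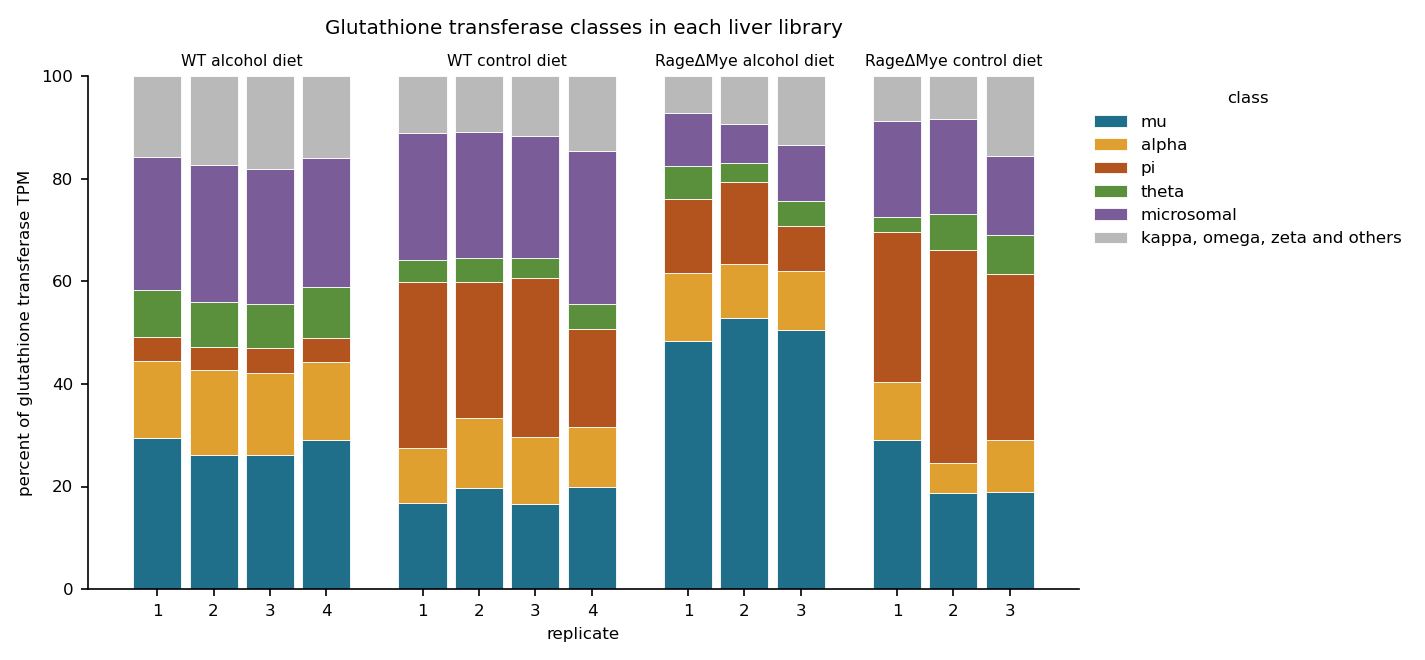
Share of all glutathione transferase TPM held by each class (y axis, percent) in each liver library (x axis), alcohol left of control within each genotype. The pi share was at most 15.9% in the alcohol libraries and at least 19.1% in the control libraries.

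In RAW264.7 cells most of the 10 genes were listed at 0. Gstm3, Gsta2, Gsta3, Gsta4, Gstp1, Gstt1 and Nqo1 were listed at 0 in all 6 libraries and were not tested. Of the 3 tested none passed, where 0.180% of 10559 genes did (19 genes), and at an unadjusted p under 0.05 there were 0 members and 877 genes. Gclc, the only member above 0 in every library, had 8.48, 9.09 and 9.03 TPM with the complex and 7.90, 11.1 and 12.0 TPM with BSA (-0.18, SE 0.394, adjusted p = 0.913). Gstm1 was listed at 0, 0 and 10.8 TPM with the complex and 9.85, 0 and 13.4 TPM with BSA (adjusted p = 0.765), and Gstm2 at 10.9, 0 and 21.5 TPM against 9.85, 0 and 0 TPM (adjusted p = 0.755). The values of Gstm1 and Gstm2 above 0 are 1 or 2 steps, and those of Gclc lie at 0.777 to 0.997 steps. The NRF2 targets Hmox1 and Slc7a11 were above 0 in every library. Hmox1 stood at 485 to 635 TPM with the complex and 411 to 640 TPM with BSA, and the cystine importer Slc7a11 at 526 to 609 and 606 to 622 TPM. In liver Slc7a11 stood at 0.00602 to 0.0217 TPM in WT alcohol and 0.00183 to 0.0117 TPM in WT control libraries. In RageΔMye libraries it stood at 22.1 to 34.8 TPM on alcohol and 33.4 to 41.4 TPM on control diet. The step of the RageΔMye libraries was 14.4 to 20.5 TPM, so these values lie at few steps. Hmox1 and Slc7a11 were singled out after their values were seen, and no difference between the liver and cell tables was tested.

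None of the companion genes passed in RAW264.7 cells, of 8 other glutathione transferases, 22 other NRF2 targets, 10 regulators and 15 genes of glutathione synthesis and turnover tested. At an unadjusted p under 0.05 there were 1, 2, 1 and 1 of them, beside 877 of all 10559 genes tested. Osgin1 was listed at 0 in all 3 libraries with the complex and at 8.78 to 18.2 TPM with BSA, and it missed the threshold (adjusted p = 0.0527). Sqstm1, the autophagy adaptor that binds KEAP1, had 495 to 587 TPM with the complex and 289 to 379 TPM with BSA, without overlap (0.71, SE 0.144, adjusted p = 0.148). An exon of Sqstm1 overlaps one of Mrnip on the opposite strand. Txnrd1, a thioredoxin reductase, had 187 to 273 TPM with the complex and 139 to 167 TPM with BSA (0.59, SE 0.188, adjusted p = 0.440). Gpx3, the secreted glutathione peroxidase, had a difference of 2.73 (SE 0.526, adjusted p = 0.133). The others nearest the threshold were Mgst3 (-2.98, adjusted p = 0.586), Mgst2 (-2.48, 0.586), Maff (-0.46, 0.633) and Gpx4 (-1.19, 0.641).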

How the data were processed

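RNA of 14 liver and 6 RAW264.7 libraries was sequenced after stranded mRNA library preparation (labels' protocols), with mm10 as the build in the submitters' processing notes. Aligner, counting tool and strand setting are not stated there. The authors deposited 2 tables, whose headers name no unit. The deposited values were read as TPM, since they are not whole and every library has the same sum. TPM keeps no depth, so no counting interval is given, and no liver value was tested against a RAW264.7 value.

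On the log2(TPM + 1) scale, genes averaging at least 1 TPM in a group of the fit entered limma 3.58.1 (R 4.3.3), with intensity trend and Benjamini-Hochberg adjustment over all genes of a fit, called under 0.05. This scale understates changes of low WT genes, and makes 1 step against 0 a large difference in RageΔMye and RAW264.7 libraries. Each diet comparison was fitted on its own 8 WT or 6 RageΔMye libraries, and the difference of effects on all 14 with library weights per genotype. The fits were tested on simulated data. The members and lists were chosen with earlier results of these data known. All 10 members are named, with up to 5 passing genes of each companion list by adjusted p. Where none passed, the values of its 2 genes of smallest p are given.

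Promoters are from RefSeq, and positions and coding sequences from GENCODE vM21. Alternatives were other pseudocounts, filters, scalings, thresholds, sets of libraries and fits. A pseudocount of 20 was added after seeing the data.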

Additional observations from a re-analysis of the deposited data

Results flagged for a closer look

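For 3 of 20 pairs of a member and a WT group of 4 libraries, a library lay far from the others of its group. The members share the same libraries, so the 20 pairs are not independent and no chance rate is set beside them. Gstp1 in WT control replicate 4 was 1702 TPM, with the nearest other at 3236 TPM. Gstt1 in WT control replicate 2 was 463 TPM, with the nearest other at 360 TPM. Nqo1 in WT control replicate 2 was 8.66 TPM, with the nearest other at 4.84 TPM. WT control replicate 2 was the highest of its group for 8 of the 10 members, and replicate 4 the lowest for 9. The part of these libraries in the results was not tested beyond the values without them.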

How the results depend on the processing

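In WT liver 3042 genes and 4 of the 10 members passed. The counts were 1881 genes with a filter at 5 TPM, 1450 genes and 2 members at an adjusted p under 0.01, and 337 genes and 1 member in the joint fit of all 14 liver libraries with 1 shared spread. With 1 library left out in turn, they ran between 2055 and 3469 genes and between 2 and 5 members. Gstp1 passed in all 18 alternatives. Differences that did not pass changed sign: Gstm1 was 0.11 with quantile normalization and ran between -0.0891 and 0.0799 with a library left out, Gstm3 between -0.0116 and 0.25, Gsta2 between -0.30 and 0.29 and Gclc between -0.25 and 0.0247.

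In RageΔMye libraries 4 genes and 0 members passed. A filter at 5 TPM gave 9 genes and 1 member, quantile normalization 7 and 1, rescaling without opposite-strand genes 1 member, a pseudocount of 20 gave 9 and 1, an adjusted p under 0.01 gave 0 genes, the joint fit 657 genes and 4 members, and that fit with weights per genotype 50 genes. The 1 member was Gstm1 each time. Leaving out libraries gave 0 to 5 genes and 0 to 1 member. Gstt1, at 0.00, was -0.0048 with a pseudocount of 0.1, -0.0182 after rescaling and -0.65 to 0.91 with a library left out. Gstm2 was -0.0087 with a pseudocount of 20 and -0.26 to 3.25 with a library left out, and Gstp1 ran between -0.81 and 0.18.

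In RAW264.7 cells 19 genes passed, 6 after rescaling, 7 at an adjusted p under 0.01 and 2 to 9 with a library left out. With the replicate block, 0 genes passed in RageΔMye and 0 in RAW264.7 libraries. The numbers were not taken to pair the libraries, since deviations of same-numbered libraries correlated at -0.025 to 0.018.

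For the difference of effects, 61 genes and 0 members passed. The counts were 128 genes and 1 member (Gstm1) without a filter, 39 genes after rescaling, 18 at an adjusted p under 0.01, 463 genes and 4 members without weights, and 50 to 71 genes and 0 to 1 member with a library left out. Gstm2, at 0.07, was -0.54 with a pseudocount of 5, -0.76 with one of 20, -0.16 with quantile normalization and -1.17 to 2.33 with a library left out. Gstt1 ran between -0.93 and 0.63 and Nqo1 between -0.71 and 1.44. Where counts moved, the cause was not tested. TPM does not show depth, and what limits the RageΔMye and RAW264.7 values was not tested.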
